A study of Mus musculus with 9 samples.

Results

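The Hox genes of the mouse were examined for peaks of the histone deacetylases Hdac1 and Hdac2. All protein-coding genes of the RefSeq table of GRCm38 (mm10) whose symbol is Hoxa, Hoxb, Hoxc or Hoxd with a number were taken, which gave 39 of 21887 protein-coding genes. They lie in 4 clusters: A on chromosome 6 (52155367-52260880, 11 genes), B on chromosome 11 (96194316-96368254, 10 genes), C on chromosome 15 (102921131-103036856, 9 genes) and D on chromosome 2 (74668225-74765142, 9 genes). The rule uses gene symbols and no measured value, but it was chosen with earlier results of these data known. The cells were haemogenic endothelium, the endothelium from which blood cells emerge, derived in culture from C57BL/6 ES cells of 3 lines labelled Bry (passage 16 to 19), Hd1_loxlox and Hd2lox (passage 25 to 30 each). Each line gave 1 chromatin immunoprecipitation (ChIP-seq) library with an Hdac1 antibody from Diagenode, 1 with an Hdac2 antibody from abcam and 1 input library, and no cells were treated. The labels give no genotype beyond the names of the lines and do not say that any deacetylase gene was deleted in the cells used. The data are 6 lists of peak positions, which held between 5161 and 9279 peaks, with no heights and no read counts, so read depth is unknown and the absence of a peak may reflect few reads. The 3 input libraries were not analysed here. Peak lists carry no expression, so the identity of the cells could not be checked from marker RNA.

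Hox genes encode homeodomain transcription factors that give cells their position along the body axis. In each cluster they are numbered in an order that runs along the chromosome, and genes of different clusters with the same number are paralogues. The clusters are classic targets of Polycomb repressors and of Mll methyltransferases, which keep them silent or active, and histone deacetylases remove the acetyl marks of active chromatin. In blood development Hoxa9 and Hoxb4 are known for their effects on stem and progenitor cells.

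The sequences of 7 promoter windows on which the results below turn are given first, because peaks lay over some of them and not over others. Each runs from 250 bases before to 50 after a listed start site, is taken from RefSeq (GRCm38.p6), reads 5′ to 3′ on the coding strand and has its CpG dinucleotides in capitals. Hoxd8 (chromosome 2, 74704365-74704664, plus strand) was under peaks of 3 lists, as was Hoxd1 (74762730-74763029, plus strand), and Hoxd13 (74667975-74668274, plus strand) was under peaks of both Hd2lox lists. Hoxd11 and Hoxa10 each have 2 listed start sites. For Hoxd11 (plus strand) the inner window (74682073-74682372) was under both Hd2lox peaks and the outer one (74679308-74679607) under none. For Hoxa10 (chromosome 6, minus strand) the inner window (52234890-52235189) was under both Hd2lox peaks. Hoxd4 (chromosome 2, 74721728-74722027, plus strand) was under no peak.
Hoxd8: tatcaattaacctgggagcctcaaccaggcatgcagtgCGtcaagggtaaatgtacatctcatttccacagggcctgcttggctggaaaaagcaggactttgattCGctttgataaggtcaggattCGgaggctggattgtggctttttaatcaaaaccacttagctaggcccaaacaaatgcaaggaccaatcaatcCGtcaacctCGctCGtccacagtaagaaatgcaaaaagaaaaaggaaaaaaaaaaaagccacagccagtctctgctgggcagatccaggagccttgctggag
Hoxd1: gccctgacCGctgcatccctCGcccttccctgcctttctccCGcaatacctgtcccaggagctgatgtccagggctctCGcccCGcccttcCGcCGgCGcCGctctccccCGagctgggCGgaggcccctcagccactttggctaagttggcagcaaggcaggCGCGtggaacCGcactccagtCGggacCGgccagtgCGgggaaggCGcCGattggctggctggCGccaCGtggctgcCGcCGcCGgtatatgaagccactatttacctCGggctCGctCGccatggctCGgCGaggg
Hoxd13: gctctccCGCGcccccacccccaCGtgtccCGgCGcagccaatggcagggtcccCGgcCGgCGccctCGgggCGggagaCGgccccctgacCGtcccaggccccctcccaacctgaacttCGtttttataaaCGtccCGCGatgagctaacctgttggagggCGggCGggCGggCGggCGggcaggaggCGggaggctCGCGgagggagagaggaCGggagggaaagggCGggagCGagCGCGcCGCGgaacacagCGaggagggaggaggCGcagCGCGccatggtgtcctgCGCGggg
Hoxd11 inner: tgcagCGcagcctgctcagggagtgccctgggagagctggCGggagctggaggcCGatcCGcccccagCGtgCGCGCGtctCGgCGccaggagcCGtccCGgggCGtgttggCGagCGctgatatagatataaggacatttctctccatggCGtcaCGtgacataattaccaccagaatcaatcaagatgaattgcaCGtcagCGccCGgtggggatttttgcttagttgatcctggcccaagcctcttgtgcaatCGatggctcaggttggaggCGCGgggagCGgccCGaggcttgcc
Hoxd11 outer: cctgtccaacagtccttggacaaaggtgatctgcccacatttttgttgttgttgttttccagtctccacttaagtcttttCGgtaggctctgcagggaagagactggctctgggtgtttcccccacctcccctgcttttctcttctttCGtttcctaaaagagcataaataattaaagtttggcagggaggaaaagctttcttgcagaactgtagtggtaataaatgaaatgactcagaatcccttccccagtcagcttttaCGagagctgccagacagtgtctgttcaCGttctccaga
Hoxa10 inner: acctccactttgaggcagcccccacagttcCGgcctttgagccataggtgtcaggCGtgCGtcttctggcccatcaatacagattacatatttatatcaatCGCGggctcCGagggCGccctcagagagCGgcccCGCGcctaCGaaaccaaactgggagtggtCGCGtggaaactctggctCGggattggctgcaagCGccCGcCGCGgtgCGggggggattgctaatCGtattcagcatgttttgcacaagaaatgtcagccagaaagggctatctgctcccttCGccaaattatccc
Hoxd4: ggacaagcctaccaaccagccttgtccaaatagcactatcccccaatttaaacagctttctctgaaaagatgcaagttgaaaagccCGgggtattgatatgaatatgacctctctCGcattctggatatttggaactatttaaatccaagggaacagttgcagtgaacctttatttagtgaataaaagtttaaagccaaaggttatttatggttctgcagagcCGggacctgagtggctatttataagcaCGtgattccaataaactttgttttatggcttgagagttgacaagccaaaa

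The first question was how many Hox genes carried each protein in each line. A gene was counted when a peak of a list lay within 1000 bp of either annotated end. In Bry, Hdac1 was at 1 of the 39 genes, Hoxd8 (2.56%, Wilson 95% interval 0.454 to 13.2%), where 31.9% of all protein-coding genes had such a peak. Bry Hdac2 was at 4 (10.3%, against 34.4% of all genes): Hoxb2, Hoxd1, Hoxd8 and Hoxd9. In Hd1_loxlox, Hdac1 was at 3, Hoxb2 and Hoxd3 among them (7.69%, against 31.7%), and Hdac2 was also at 3, Hoxb3, Hoxb5 and Hoxd10 (7.69%, against 2.71%). Hoxb3 and Hoxb5 were counted there from the same peak. The Hd1_loxlox Hdac2 list was the shortest (5161 peaks) and had the lowest share of all genes with an end peak. In Hd2lox, Hdac1 was at 14 (35.9%, interval 22.7 to 51.6%, against 24.3%) and Hdac2 at 8 (20.5%, interval 10.8 to 35.5%, against 13.5%). The Hox share was below that of all genes in both Bry lists and in Hd1_loxlox Hdac1, and there the share of all genes lay above the upper bound of the Hox interval (13.2%, 23.6% and 20.3%). It was the higher of the pair in both Hd2lox lists and in Hd1_loxlox Hdac2, but in these 3 lists the share of all genes lay inside the Hox interval (lower bounds 22.7%, 10.8% and 2.65%). The intervals cover counting error only, and neighbouring Hox genes can share a peak, so these shares are descriptions and the lines were not tested against each other.

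**Figure D1:**
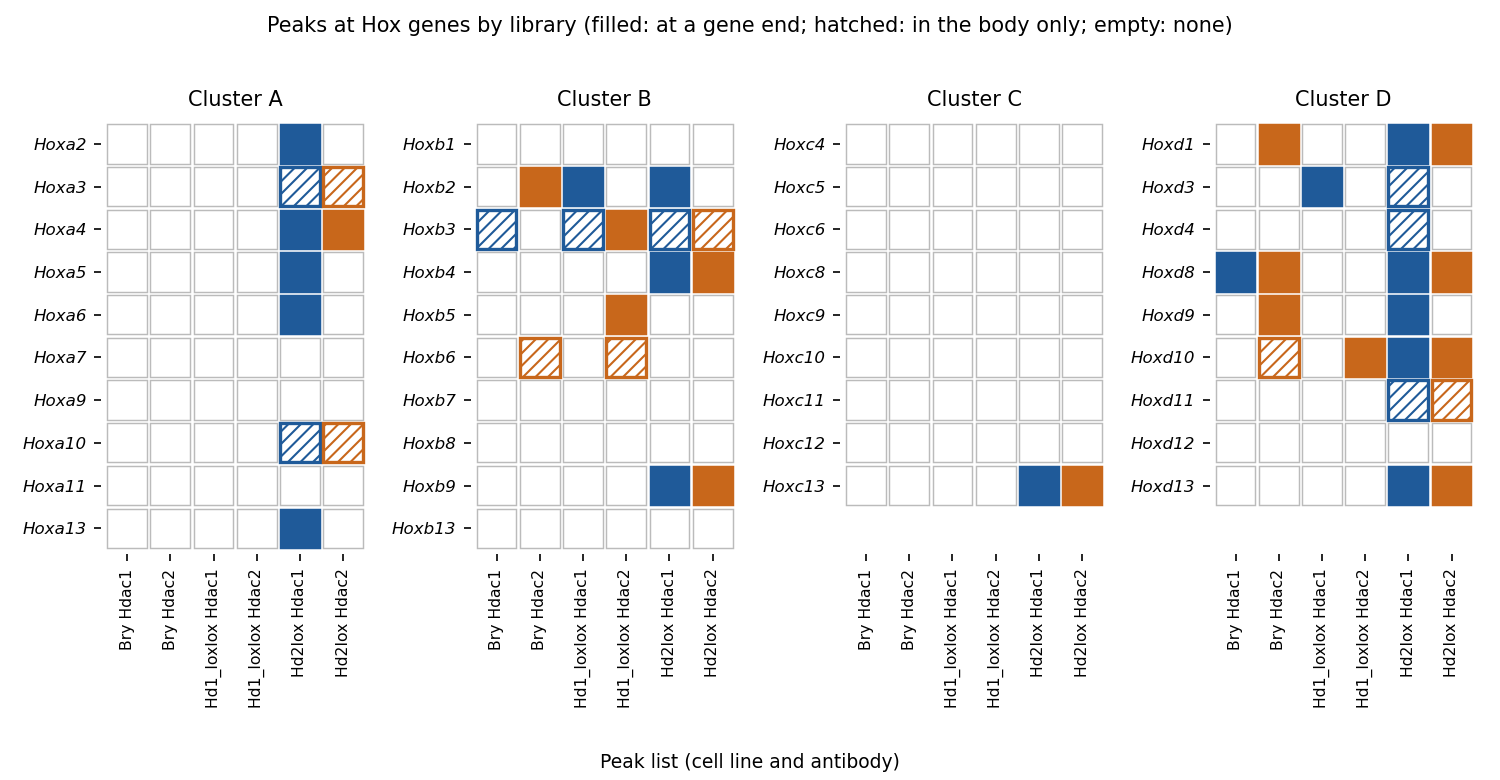
Each square is 1 Hox gene (rows, by cluster and paralogue number) in 1 peak list (columns), blue for Hdac1 and orange for Hdac2. Filled squares mark a peak within 1000 bp of a gene end, hatched squares a peak in the gene body only. The plot shows 38 of the 39 genes. The Hd2lox columns hold 14 and 8 filled squares and the Bry Hdac1 column holds 1.

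When peaks inside genes were added, the counts were 2 in Bry Hdac1 and 6 in Bry Hdac2 (35.4% and 38.9% of all protein-coding genes), 4 in each Hd1_loxlox list (35.2% of all genes for Hdac1 and 11.0% for Hdac2), and 20 in Hd2lox Hdac1 and 12 in Hd2lox Hdac2 (29.3% and 21.8% of all genes). Of the 39 genes, 21 (53.8%) had no end peak in any list, close to the 52.2% of all genes. The genes that did have one were held by few lists. No Hox gene was in all 3 Hdac1 lists, where 14.6% of all genes were, and 2 (Hoxb2 and Hoxd8) were in at least 2 Hdac1 lists, against 30.2%. At least 2 Hdac2 lists held 3 (Hoxd1, Hoxd8 and Hoxd10), or 7.69%, against 10.6%. The Hd2lox lists alone held 9 (23.1%) that no other line did, against 3.82% of all genes, namely Hoxa2, Hoxa4, Hoxa5, Hoxa6, Hoxa13, Hoxb4, Hoxb9, Hoxc13 and Hoxd13. Both Hd2lox lists held 8 (20.5%, against 12.5%).

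**Figure D2:**
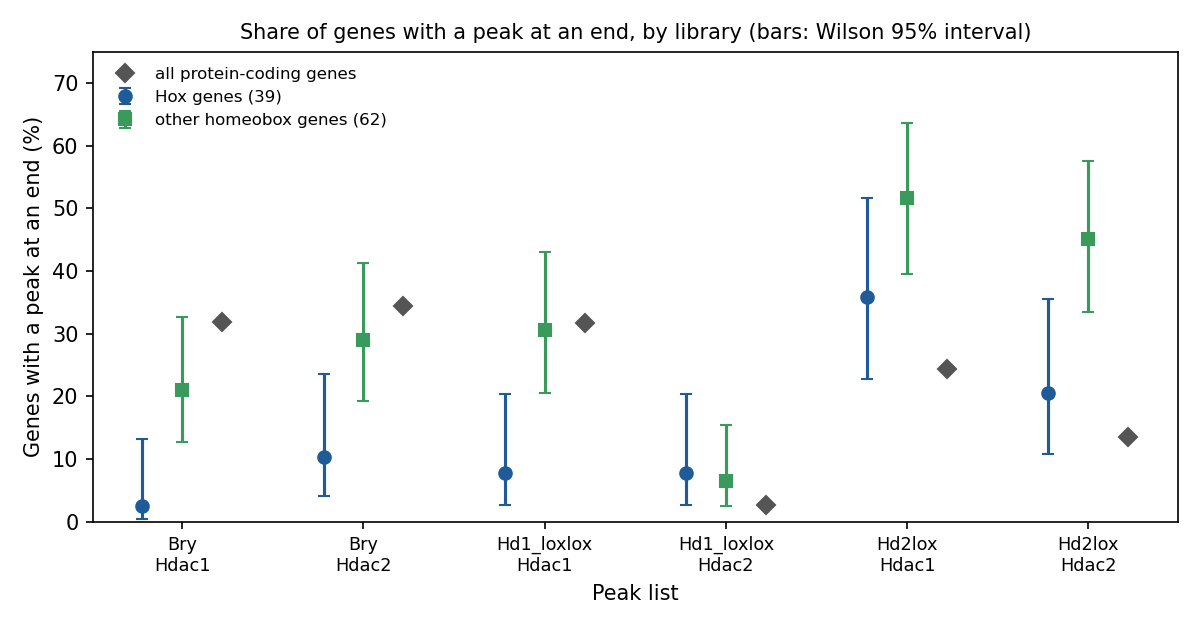
The y axis gives the percent of genes with a peak within 1000 bp of an end in each of the 6 lists, for the 39 Hox genes (circles), 62 other homeobox genes (squares), each with its Wilson 95% interval, and for all protein-coding genes (diamonds, no interval). Hox genes lie below all genes in both Bry lists and in Hd1_loxlox Hdac1 and above them in the other 3, where the Hox intervals take in the share of all genes, and other homeobox genes reach 51.6% and 45.2% in the Hd2lox lists.

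The second question was whether Hdac1 and Hdac2 differed over these genes. The number of Hox genes with an end peak was 1, 3 and 14 for Hdac1 and 4, 3 and 8 for Hdac2 (Bry, Hd1_loxlox and Hd2lox in that order). The ranges overlap, and the means of 6 ± 7 and 5 ± 2.65 (SD, n = 3 lines each) lay closer together than the lines of either antibody did (exact two-sided permutation p = 1, where 0.1 is the smallest this design can give, so no difference here could pass 0.05). With gene bodies included the means were 8.67 ± 9.87 and 7.33 ± 4.16 (SD, n = 3; exact permutation p = 1). Peaks covered 0.907%, 1.22% and 4.62% of the cluster length for Hdac1 and 1.57%, 0.715% and 2.14% for Hdac2 (exact permutation p = 0.8). Over the combined length of all protein-coding genes the corresponding coverage was 0.805%, 0.870% and 0.783% for Hdac1 and 0.901%, 0.286% and 0.441% for Hdac2. The cluster spans are dense in short genes and include the ground between them, which the gene lengths leave out, so these coverages are not like for like. In both Bry lists and in Hd1_loxlox Hdac1 the coverage of the clusters was the higher value, whereas the share of Hox genes with an end peak was the lower one. Within lines the difference in end counts, Hdac1 minus Hdac2, was -3 in Bry, 0 in Hd1_loxlox and 6 in Hd2lox. By cluster, none of the 4 differences passed (exact permutation p between 0.7 and 1, each with an adjusted p of 1 over the 4 clusters). Without Hd2lox the mean difference in end counts turned to -1.5, that with gene bodies to -2 and that in coverage to -0.0757 percentage points.

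The 44 peaks that overlapped the cluster spans fell on 27 separate places. Of the peaks, 31 were at a gene end, 11 in a gene body only and 2 between genes. Of the 27 places, 14 were in 1 list, 10 in 2, 2 in 3 and 1 in 4, and 5 were shared between lines. Hd2lox lists alone held 13 of them, Hd1_loxlox lists alone 7 and Bry lists alone 2. All 10 Hd2lox Hdac2 peaks of the clusters overlapped a Hd2lox Hdac1 peak, and 10 of the 17 Hdac1 peaks overlapped an Hdac2 peak. In Bry 1 of 2 Hdac1 and 1 of 6 Hdac2 peaks did so, and in Hd1_loxlox none of 4 and none of 5. Over all protein-coding genes, 2946 had an Hd2lox Hdac2 end peak and 2744 had end peaks of both Hd2lox lists. These are counts of genes and not of overlapping peaks, but such pairing in Hd2lox was not particular to the clusters. No count over all genes stands beside the overlaps of Bry and Hd1_loxlox, and none over all peaks beside the counts of places. Neither can be read as a trait of the clusters.

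**Figure D3:**
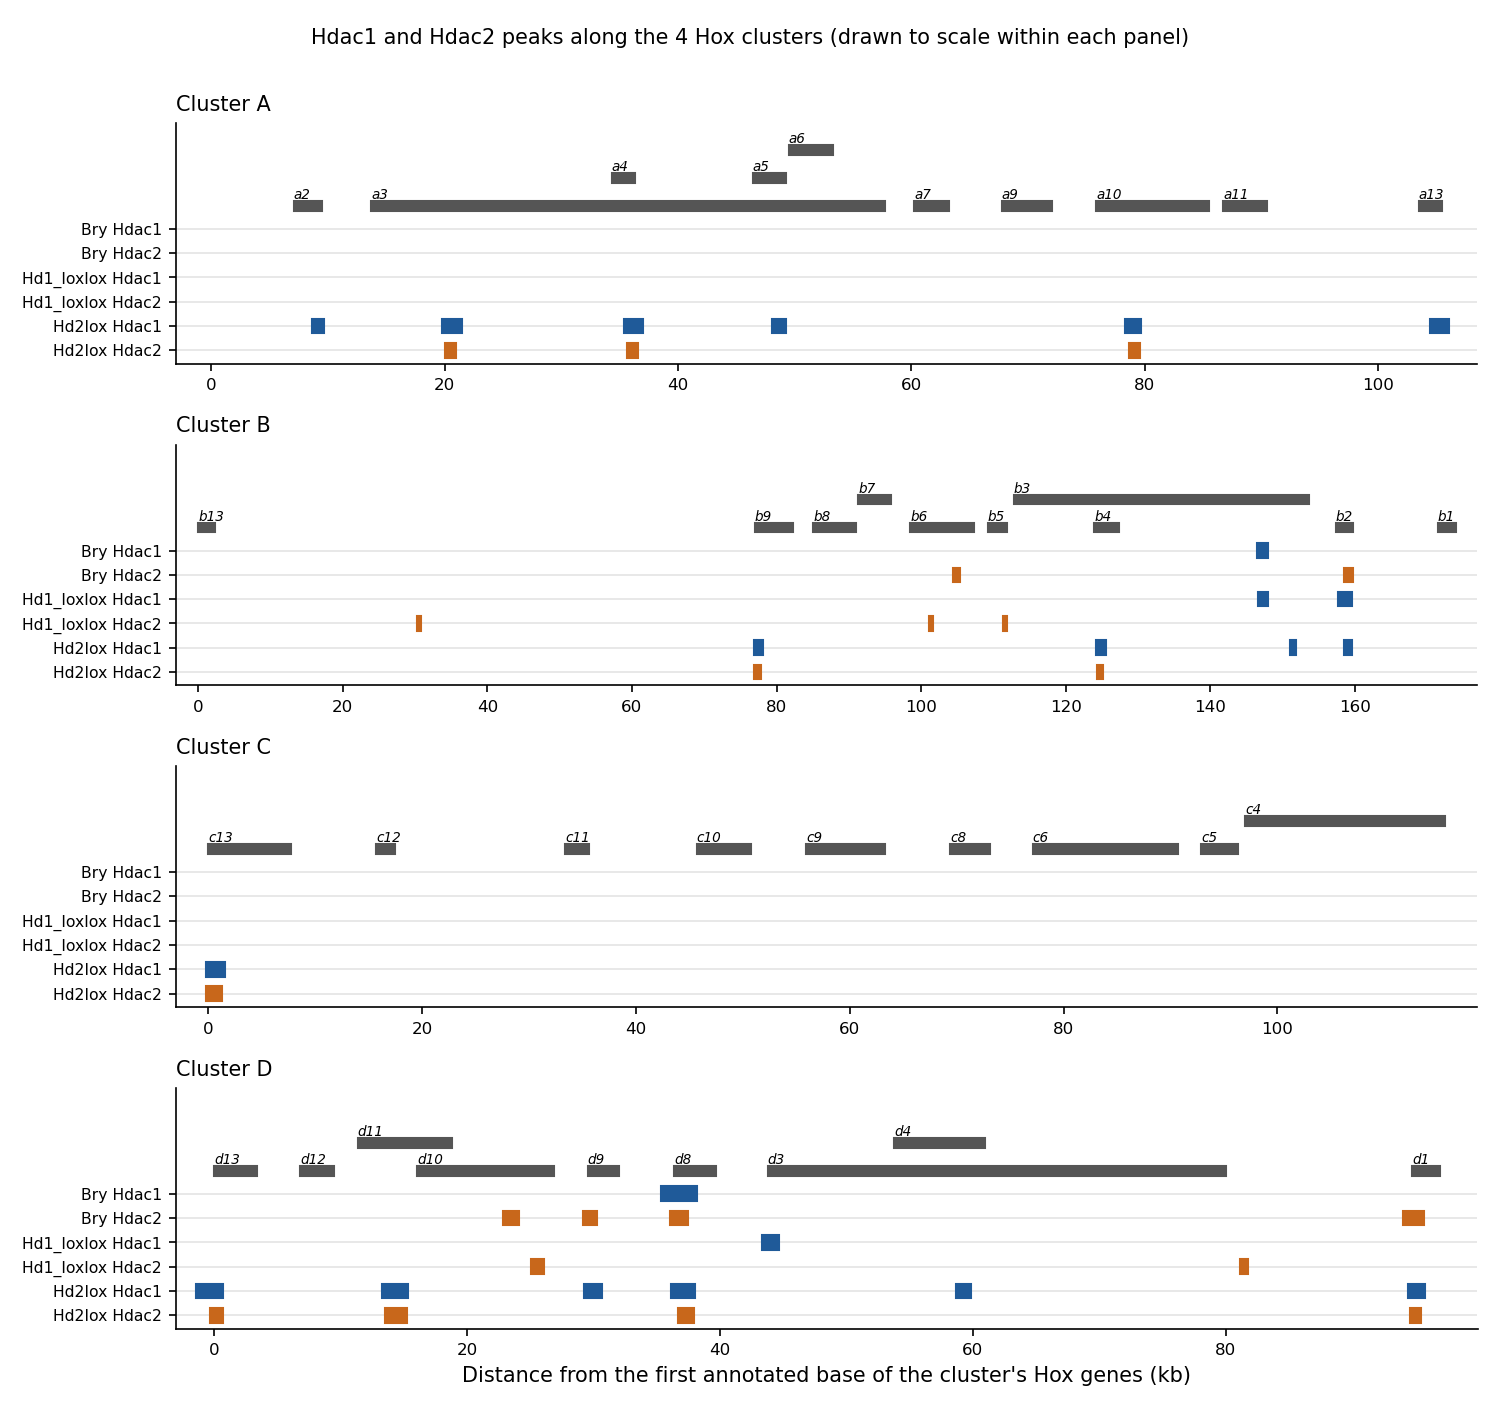
Peaks of the 6 lists (rows, blue for Hdac1 and orange for Hdac2) are drawn over distance in kb from the first annotated base of each cluster, with the Hox genes in grey above. The map shows 38 of the 39 genes and 43 of the 44 peaks. The Hd2lox rows carry 17 Hdac1 and 10 Hdac2 peaks, and cluster C carries peaks over Hoxc13 only.

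Cluster D, which patterns the limbs, the genital tubercle and the trunk, held the most peaks, 18 of the 44. Hdac1 was at an end of 1, 1 and 5 of its 9 genes and Hdac2 at 3, 1 and 4 (Bry, Hd1_loxlox, Hd2lox). Over all protein-coding genes the shares were 31.9%, 31.7% and 24.3% for Hdac1 and 34.4%, 2.71% and 13.5% for Hdac2. Hoxd8, a gene of the central part of the cluster, was the only Hox gene in 4 lists. Its Bry Hdac1 peak (chromosome 2, 74703576-74706403) was 2828 bp wide, the widest peak of any cluster and wider than or equal to 97.1% of its list. The Bry Hdac2 peak (74704303-74705694, 1392 bp) and the Hd2lox Hdac1 peak (74704368-74706272, 1905 bp) covered its start site too. The Hd2lox Hdac2 peak (74704905-74706172, 1268 bp) began 290 bp downstream of it. The Hoxd8 gene spans 74704615-74707933, so these peaks overlap each other over its first part, and neither Hd1_loxlox list had a peak there.

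Hoxd1, the gene at the 3′ end of the cluster, was in 3 lists at a shared place. Bry Hdac2 covered 74762232-74763896 (1665 bp), Hd2lox Hdac1 74762615-74763966 (1352 bp) and Hd2lox Hdac2 74762768-74763685 (918 bp), all over the start site at 74762980. Hoxd9 was in 2 lists, Bry Hdac2 (74697355-74698479) and Hd2lox Hdac1 (74697481-74698912), which overlapped over its start. Hoxd13, the 5′ gene needed for digits, was in both Hd2lox lists (Hdac1 74666787-74668936, Hdac2 74667879-74668930) and in no other.

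Hoxd10 was in 3 lists, but not at a shared place. Both Hd2lox peaks (Hdac1 74681523-74683551, Hdac2 74681689-74683460) lay inside Hoxd11, over its inner start site at 74682323, and counted for Hoxd10 because the annotated outer end of that gene is near. The Hdac2 peak there was wider than or equal to 99.4% of its list. The Hd1_loxlox Hdac2 peak (74693254-74694292) was at the other end of Hoxd10, and a Bry Hdac2 peak (74691079-74692292) over its listed start site at 74691891 lay too far from either outer end to count. With windows of 500 bp no list held Hoxd10. Hoxd3 had an Hd1_loxlox Hdac1 peak over its start (74711567-74712863), Hoxd4 had an Hd2lox Hdac1 peak in its body (74726898-74728092), and Hoxd12 had no peak in any list.

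Cluster A had 6 Hdac1 peaks and 3 Hdac2 peaks in Hd2lox and none in Bry. The Hd2lox Hdac1 peaks lay over the start of Hoxa2 (chromosome 6, 52163949-52165014), inside Hoxa3 (52175161-52176805), over the upper end of Hoxa4 (52190769-52192391), at Hoxa5 and within 1000 bp of Hoxa6 (52203386-52204584), over the inner start of Hoxa10 (52233671-52235072) and over the start of Hoxa13 (52259850-52261421). Hdac2 of Hd2lox shared the places in Hoxa3, Hoxa4 and Hoxa10. Hoxa7, Hoxa9 and Hoxa11 had no peak at an end or in the body in any list. Hoxa9, known for its part in blood progenitors and leukaemia, was thus without a peak in all 6 lists.

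In cluster B, as in D, all 6 lists had a peak, though at different places. Hoxb2, a gene of the hindbrain and neural crest, was in 3 lists that overlapped, Bry Hdac2 (chromosome 11, 96352740-96353971, 1232 bp), Hd1_loxlox Hdac1 (96352023-96353851, 1829 bp) and Hd2lox Hdac1 (96352727-96353922, 1196 bp). These lay over the gene (96351632-96354020) and made it the only Hox gene with overlapping peaks from all 3 lines. Hoxb4, a gene that expands blood stem cells when forced on, had peaks in the Hd2lox lists only (Hdac1 96318511-96319839, Hdac2 96318590-96319451), which began 244 and 323 bp downstream of its listed start. Because Hoxb4 lies within the long annotated span of Hoxb3 (96307101-96347930), the same peaks are also body peaks of Hoxb3. Hoxb9 carried both Hd2lox peaks too (96271185-96272431 and 96271203-96272196). A place in Hoxb3 was shared by Hdac1 of Bry (96340712-96342346) and of Hd1_loxlox (96340957-96342239), the only place with Hdac1 in both of these lines and not in Hd2lox. Hoxb6 had body peaks of Hdac2 in Bry (96298655-96299738) and Hd1_loxlox (96295334-96295945), which did not overlap. An Hd1_loxlox Hdac2 peak of 566 bp (96305640-96306205) counted for both Hoxb5 and Hoxb3. Hoxb1, Hoxb7, Hoxb8 and Hoxb13 had none.

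Cluster C was nearly empty. Its only peaks were those of Hd2lox over the lower end of Hoxc13 (chromosome 15, 102921131-102928814), a gene of hair and nail formation, at 102920879-102922675 for Hdac1 (1797 bp) and 102920916-102922405 for Hdac2 (1490 bp). The Hdac2 peak was wider than or equal to 98.0% of its list. The other 8 genes of the cluster, Hoxc4 to Hoxc12, had no peak at an end or in the body in any of the 6 lists. By cluster, 6 of 11 genes of A, 5 of 10 of B, 1 of 9 of C and 6 of 9 of D had an end peak in at least 1 list. Of all protein-coding genes 47.8% did. These counts describe 4 loci and were not tested against each other.

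By paralogue number, 8 of 12 genes of groups 1 to 4 had an end peak in some list, as did 4 of 11 in groups 5 to 8 and 6 of 16 in groups 9 to 13, where 47.8% of all protein-coding genes did. The groups are small and were not tested against each other. Group 13, the last genes of the clusters, had 3 of 4 (Hoxa13, Hoxc13 and Hoxd13), all in Hd2lox and none in the other lines. Both members of group 2, Hoxa2 and Hoxb2, had one. Groups 7, 11 and 12 had none at an end, although Hoxd11 had the body peaks described above. Among paralogues the lists matched in some groups and not in others. At an end, Hoxa4 and Hoxb4 were each in the 2 Hd2lox lists and no other, while Hoxc4 and Hoxd4 were in none. Hoxc13 and Hoxd13 were also in the 2 Hd2lox lists only, and Hoxa13 in 1 of them. Of the 3 genes of group 8, Hoxd8 was in 4 lists and Hoxb8 and Hoxc8 in none. Of the 4 of group 9, Hoxb9 and Hoxd9 were each in 2 lists and shared Hd2lox Hdac1, while Hoxa9 and Hoxc9 were in none.

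The position of the peaks was then set against start sites. RefSeq promoter windows were matched for 22 of the 39 genes, with 24 start sites, and the other 17 genes were not used in this step. Peaks of any list lay over 11 of the 24 windows, and the matching share of all windows is not given here. Bry Hdac1 peaks lay over 1 (4.17%, against 30.7% of all 21263 windows of protein-coding genes) and Bry Hdac2 peaks over 4 (16.7%, against 32.6%). Those of Hd1_loxlox lay over 1 for Hdac1 (4.17%, against 30.5%) and 0 for Hdac2 (against 1.06%). Those of Hd2lox lay over 9 for Hdac1 (37.5%, against 22.9%) and 4 for Hdac2 (16.7%, against 10.9%). Of the 22 peaks within 1000 bp of a Hox start site, counted per list, 20 (90.9%) had their centre downstream, with a median of 330 bp into the gene. The exceptions were 1 peak each at Hoxd10 and Hoxd13. For all protein-coding genes 67.2% of 29407 such peaks were centred downstream, with a median of 129 bp. Several of the Hox peaks share a place, so they are not independent.

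**Figure D4:**
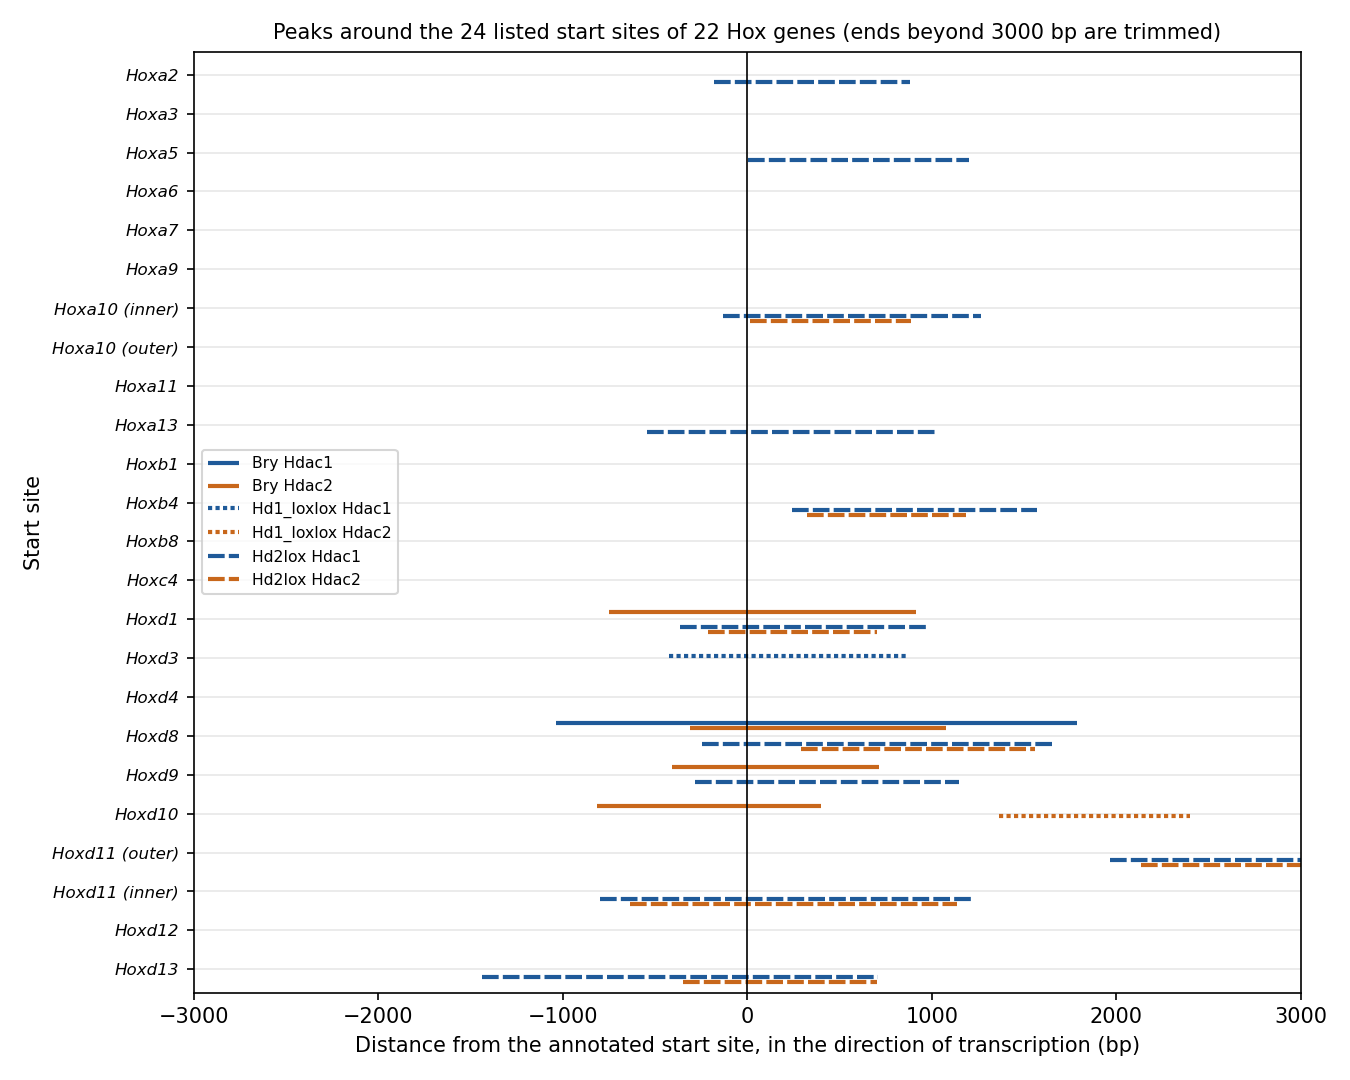
Each line is 1 peak, drawn by its distance in bp from a listed start site (rows) in the direction of transcription, with blue for Hdac1, orange for Hdac2 and the line style for the cell line. Most peaks span or follow the start, and 13 of the 24 promoter windows are under none.

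The promoter windows under a peak had a higher median CpG count than those under none, a difference that was not tested. The windows of all genes are not split by peak here, so the difference cannot be read as a trait of Hox genes. The 11 windows under a peak held a median of 22 CpG dinucleotides (median GC content 62%) and the 13 under none a median of 12 (55.0%), against 13 (56.3%) over all protein-coding genes. The largest count, 45, was in the window of Hoxa13, under an Hd2lox Hdac1 peak and not printed here. Among the printed windows Hoxd13 held 37 CpG, Hoxd1 29, the inner Hoxd11 window 25 and the inner Hoxa10 window 21. The outer Hoxd11 window and Hoxd4, both without a peak, held 4 each, the lowest count among the Hox windows, so the printed windows overstate the contrast. Hoxd8, the gene in most lists, held 6, and Hoxa6, under no peak, held 26. The motif GGGCGG, the GC box, was found on either strand in 5 of the 11 windows under a peak and 5 of the 13 under none (46.2% of all). The motif CCAAT was in 9 and 6 (38.2% of all), and TATAAA in 2 and 2 (12.6% of all). CCAAT and TATAAA can share a base where they adjoin, and a match describes the window only.

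Of 32 non-coding genes in the cluster spans, 10 had an end peak in some list and 22 had none. They were 9 of 25 lncRNA genes, against 17.7% of all 12727 lncRNA genes, and 1 of 6 miRNA genes, against 14.0% of 1228. Many of the lncRNA genes overlap a Hox gene and share its peaks. Hoxb3os, antisense to Hoxb3 and reaching Hoxb2, had one in 4 lists, as did Haglr beside Hoxd1, and these are peaks already counted for Hoxb2, Hoxb3 and Hoxd1, apart from an Hd1_loxlox Hdac2 peak of 698 bp in Haglr (chromosome 2, 74749319-74750016) between Hox genes. The lncRNA gene Hotair in cluster C had none. The 6 miRNA genes encode miR-10, miR-196 and miR-615, and miR-10 and miR-196 are known to target Hox transcripts. Mir10b (74726070-74726137) lay 761 bp from the Hd2lox Hdac1 peak in Hoxd4, the only peak within 1000 bp of any of them, and its paralogue Mir10a (chromosome 11, 96317165-96317274) lay 1237 bp from the Hd2lox Hdac1 peak and 1316 bp from the Hd2lox Hdac2 peak at Hoxb4. Their main products share the seed, bases 2 to 8, in capitals below (RefSeq, GRCm38.p6), and are shown because each gene lies in or beside a group 4 Hox gene with Hd2lox peaks.
miR-10a-5p: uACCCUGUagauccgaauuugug
miR-10b-5p: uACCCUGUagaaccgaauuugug

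The widths of the cluster peaks differed between lists. In Hd2lox the Hdac2 peaks of the clusters had a median of 968.5 bp and a median width percentile of 81.7 within their list, while the Hdac1 peaks had a median of 1402 bp and a percentile of 46.5. The 5 Hd1_loxlox Hdac2 peaks were narrow, with a median of 612 bp and a percentile of 9.84, and all 5 were in no other list. The share of all peaks of that list found in no other is not given here, so this cannot be read as a trait of the clusters. The Bry Hdac2 peaks had a median of 1223 bp (percentile 41.7) and the Hd1_loxlox Hdac1 peaks 1455 bp (percentile 47.2). Bry Hdac1, with 2 peaks only, had the highest values of any list, 2231.5 bp (percentile 83.3). With only the peaks wider than the median of their list, Hox genes with an end peak numbered 1, 2 and 6 for Hdac1 and 2, 0 and 8 for Hdac2. The matching shares of all genes are not given here.

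For the genes that act with Hox proteins or on their clusters, end peaks are read against the shares of all protein-coding genes, which were 31.9%, 31.7% and 24.3% for Hdac1 and 34.4%, 2.71% and 13.5% for Hdac2 (Bry, Hd1_loxlox and Hd2lox). A list of 24 genes held members of Polycomb and Mll complexes and other chromatin factors such as Dot1l. Of these 24, the numbers with Hdac1 were 21 (87.5%), 21 (87.5%) and 19 (79.2%) in that order of lines. Those with Hdac2 were 18 (75%), 2 (8.33%) and 9 (37.5%). Kmt2a, the Mll methyltransferase that maintains Hox expression, was in all 6 lists, and Ezh2, Eed, Jarid2, Rnf2, Cbx2 and Wdr5 were among those in 5. Of 9 genes of TALE homeodomain cofactors, which bind DNA with Hox proteins, Hdac1 was at 6 (66.7%), 6 (66.7%) and 4 (44.4%) and Hdac2 at 6 (66.7%), 2 (22.2%) and 2 (22.2%), with Pbx3 in 5 lists. Meis1, which works with Hoxa9 in blood progenitors, was in the 4 Bry and Hd1_loxlox lists and in neither Hd2lox list. Of 8 ParaHox genes and cluster neighbours (Gsx1, Gsx2, Pdx1, Cdx1, Cdx2, Cdx4, Evx1 and Evx2), Hdac1 was at 1 (12.5%), 0 and 2 (25%) and Hdac2 at 1 (12.5%), 2 (25%) and 2 (25%).

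Other homeobox genes outside the clusters shared part of the Hox pattern. Of 62 such genes, the Bry lists held 13 (21.0%, against 31.9% of all protein-coding genes) for Hdac1 and 18 (29.0%, against 34.4%) for Hdac2. The Hd1_loxlox lists held 19 (30.6%, against 31.7%) and 4 (6.45%, against 2.71%). The Hd2lox lists held 32 (51.6%, against 24.3%) and 28 (45.2%, against 13.5%). Like the Hox genes they had their highest shares in both Hd2lox lists, and 17 of them (27.4%) were in Hd2lox lists only, against 3.82% of all genes. All 3 Hdac1 lists held 7 of them (11.3%, against 14.6% of all genes) and none of the Hox genes. Gbx2 was in 6 lists and Six5, Irx4, Irx5 and Hhex in 5.

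Genes that mark haemogenic endothelium had most of their end peaks in Bry and none in Hd2lox, but only 8 such genes were counted. Of Cdh5, Kdr, Tek, Pecam1, Kit, Runx1, Gfi1 and Itga2b, end peaks in Bry were at 5 for Hdac1 (62.5%, against 31.9% of all genes) and 6 for Hdac2 (75%, against 34.4%). In Hd1_loxlox they were at 4 (50%, against 31.7%) and 0 (against 2.71%), and in Hd2lox at 0 for both, against 24.3% and 13.5%. In both Hd2lox lists the Wilson interval of the marker share (0 to 32.4%) took in the share of all genes. It also did so in Bry Hdac1 (30.6 to 86.3%), Hd1_loxlox Hdac1 (21.5 to 78.5%) and Hd1_loxlox Hdac2 (0 to 32.4%). Only the interval of Bry Hdac2 (40.9 to 92.9%) lay above the share of all genes. The absence of end peaks in Hd2lox therefore cannot be told from the share of all genes. The share of all genes was also lower in Hd2lox than in Bry. With gene bodies included the Hd2lox counts were 2 and 1 of 8. Tek and Runx1 had no end peak in any list. These are peaks and not expression, and their part in the Hox peaks of Hd2lox was not tested. Line, passage and any difference in culture cannot be told apart, since each line gave 1 library for each antibody.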

How the data were processed

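ChIP-seq peaks (Diagenode kit) of Hdac1 and Hdac2 in 3 lines, 1 library for each line and antibody, were analysed. The tools named per the submitters' processing notes include bcl2fastq, Bowtie2 2.2.9, SAMtools 1.3.1 and MACS2 2.1.1.20160309, with build mm10. Their settings, the peak threshold and the use of the inputs are not given. The authors deposited chromosome, start and end of each peak for each library, with no score, and starts were made 1-based here. Genes came from the RefSeq table of GRCm38, which gives outer ends without strand, and start sites from its promoter table. A peak counted if it overlapped, by 1 bp or more, a window of 1000 bp either side of a gene end. Hdac1 and Hdac2 were compared by exact two-sided permutation, 3 lines against 3, with Benjamini-Hochberg adjustment over the 4 clusters. Libraries are paired by cell line, per the labels, and the paired fit is given with the alternatives. The labels do not give the number of cultures behind a library, so each p refers to the scatter of these libraries. Every Hox gene in 3 or more lists was described with its peaks, and the others by cluster and place. Those given their own sentences besides, such as Hoxa9, Hoxb4, Hoxb9, Hoxc13, Hoxd9 and Hoxd13, were chosen after their values were seen. The overlap counts were tested on simulated data. Some items enter the counts but are not reported singly here. The members and gene lists were chosen with earlier results of these data known. Python 3.11.15, NumPy 2.4.6 and SciPy 1.17.1 were used. Windows, overlap, peak width, list length, the end used and left-out lines were varied.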

Additional observations from a re-analysis of the deposited data

Results flagged for a closer look

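The difference in the number of Hox genes with an end peak, Hdac1 minus Hdac2, ran in opposite directions in the lines. It was -3 in Bry (1 gene against 4), 0 in Hd1_loxlox (3 against 3) and 6 in Hd2lox (14 against 8). Each line has 1 library of each antibody, so the difference between lines was not tested.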

How the results depend on the processing

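No difference between Hdac1 and Hdac2 could pass 0.05 in this design, so the alternatives bear on sizes and directions only. Of 142 alternatives, 109 kept their direction, or a count within 1.5 times, 16 turned a difference or brought it to 0, and 17 moved a count or the cluster C difference. For the pairing by line (replicate block), the differences stayed at 1 (exact sign-flip p = 1), 1.33 (p = 1) and 0.777 percentage points (p = 0.75), for end counts, end or body counts and coverage, where 0.25 is the smallest p. Leaving out 1 line at a time gave -1.5 to 3 for end counts, -2 to 4 with bodies and -0.0757 to 1.496 percentage points for coverage, and the lowest value of each came without Hd2lox. It gave 0 to 1 genes in all Hdac1 lists left, 0 to 2 in at least 2 Hdac2 lists (0 without Hd2lox), -1 to 0 in cluster B and -1 to 0.5 in cluster D. With peaks wider than the list median the differences were -0.333 (ends) and -0.667 (with bodies). Without the Hd1_loxlox Hdac2 list alone they were 0 and -0.333, and -0.167 in cluster C. The cluster B difference was 0 with 500 bp windows and with the 5′ end only, and that of cluster D was 0 with 500 bp or 2000 bp windows, with peak midpoints and with the 5161 widest peaks of each list. The 5′ end setting could count only the 22 genes with a listed start. In cluster B these were Hoxb1, Hoxb4 and Hoxb8, so Hoxb2 dropped out. With 5000 bp windows 1 gene was in all 3 Hdac1 lists and 8 in at least 2 Hdac2 lists. The causes were not tested. At 5000 bp the end counts were 2, 6 and 21 for Hdac1 and 9, 6 and 12 for Hdac2. The shares of all genes at that window are not given here. Hoxd10 was in 0 lists with 500 bp windows or midpoints, and Hoxb2 was in 1 list with wide peaks only. Depth limits what an absent peak can show, since no file used here gives reads.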
